A study of Mus musculus with 16 samples.

Results

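Among 16 one-colour arrays of brain RNA from newborn mice, 4 carried almost no signal for Hoxb5, a gene that marks the caudal hindbrain and the spinal cord. The 4 arrays were chosen by that measurement: the level of the brightest Hoxb5 probe, as log2 signal minus the 75th percentile of the array, had to lie below -4. They were fresh 2, freeze-dried 2, heated 2 and heated 4, and the other 12 arrays of the 16 formed the comparison. Every gene contrasted between these sets belongs to the contrast that the choice was made on, so the differences are given as descriptions with a standard error (SE) and without a test. The brains are called Hoxb5-low here, because markers of the rostral hindbrain remained in most of them, as described further on.

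The study asked whether sperm that had been freeze-dried and then exposed to harsh conditions gives rise to normal offspring. Brain total RNA was taken at postnatal day 1 from C57BL/6 mice, with 4 animals and 4 arrays in each of 4 groups. Fathers' sperm was used fresh, after freeze-drying, after freeze-drying and 5 Gy of X-rays, or after freeze-drying and 1 h at 95 °C, and these groups are called fresh, freeze-dried, irradiated and heated. The treatment was given to the sperm and not to the pups, and the labels name the tissue only as brain, with no dissection boundary. They do not say which pups shared a litter, so p-values measure the spread between these samples only.

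Hox genes encode homeodomain transcription factors that give cells along the body axis their position. In the nervous system their expression starts in the hindbrain and runs down the spinal cord, with low-numbered paralog groups reaching furthest toward the midbrain and higher-numbered groups starting further back; the midbrain and forebrain lack them.

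Hoxb5 lay at -7.49 for fresh 2, -6.05 for freeze-dried 2, -7.17 for heated 2 and -7.75 for heated 4. In the other 12 arrays the lowest level was -1.61, the median 0.80 and the highest 1.12. The values on either side of the threshold were freeze-dried 2 at -6.05 and irradiated 1 at -1.61, so no array lay near -4. Group means of Hoxb5 were -1.13 ± 4.24 for fresh, -1.14 ± 3.34 for freeze-dried, 0.19 ± 1.20 for irradiated and -3.39 ± 4.71 for heated brains (SD, n = 4 each), and the SDs reflect the animals below the threshold and irradiated 1. Hoxb5-low brains numbered 1 of 4 in the fresh, 1 of 4 in the freeze-dried, 0 of 4 in the irradiated and 2 of 4 in the heated group. Their placement did not depart from an even one (two-sided exact permutation test over 1820 placements, p = 0.859), although with 4 such arrays a moderate imbalance could not be seen. The arrays lay on 2 slides, and each slide of 8 arrays held 2 of the Hoxb5-low brains. Between 62.0% and 64.2% of spots were well above background on the Hoxb5-low arrays, inside the range of 59.9% to 66.1% on the others.

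The mouse promoters of 3 Hox genes that were low together are shown because their products mark successive levels of the hindbrain and upper spinal cord. Of the 13 measured Hox genes, 7 had a window in the RefSeq promoter table of GRCm38.p6. The windows hold the 250 bases before the annotated start on the gene's own strand. Capitals mark CCAAT on either strand, the letters of the CCAAT box.
Hoxa3 (chr6:52213068-52213317, minus strand): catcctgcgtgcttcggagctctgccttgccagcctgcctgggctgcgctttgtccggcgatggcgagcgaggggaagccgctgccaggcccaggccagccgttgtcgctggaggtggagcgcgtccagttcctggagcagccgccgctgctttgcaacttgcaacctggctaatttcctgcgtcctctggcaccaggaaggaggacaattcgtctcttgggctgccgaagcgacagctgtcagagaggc
Hoxb4 (chr11:96318017-96318266, plus strand): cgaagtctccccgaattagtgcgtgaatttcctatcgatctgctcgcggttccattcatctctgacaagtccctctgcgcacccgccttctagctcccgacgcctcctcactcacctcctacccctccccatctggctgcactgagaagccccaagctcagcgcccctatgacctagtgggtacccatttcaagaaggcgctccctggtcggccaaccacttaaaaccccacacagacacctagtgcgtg
Hoxa5 (chr6:52204588-52204837, minus strand): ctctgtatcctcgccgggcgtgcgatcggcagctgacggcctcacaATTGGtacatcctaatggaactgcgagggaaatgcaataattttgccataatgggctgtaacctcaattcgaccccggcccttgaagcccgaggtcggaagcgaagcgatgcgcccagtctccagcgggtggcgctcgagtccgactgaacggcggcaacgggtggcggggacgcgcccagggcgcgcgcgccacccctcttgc
The windows were 64.8%, 58.0% and 63.6% G or C, respectively. CCAAT was found once, on the opposite strand of the Hoxa5 window starting 204 bases before the start, and 33.9% of 32851 windows of the same length hold it. TGATNNAT, a sequence bound by Hox and Pbx proteins together, and TATAAA were searched on both strands and were found in none of the 3 windows, against 7.68% and 12.4% of all windows. CCAAT shares no letters with the other searched sequences where it was found.

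All 13 measured Hox genes had lower mean levels in the Hoxb5-low brains, and 11 of them did not overlap between the sets of arrays. Most of the 13 passed the filter on dim probes only because the irradiated group, which has no Hoxb5-low brain, was well above background throughout, so their count carries no weight of its own. Over all 26477 genes and features measured, 0.155% were lower by at least 1 on the log2 scale without overlap (41 features) and 0 were higher by that much, and nothing is read from these shares because the arrays were chosen within this contrast. Without any limit on size, 0.389% were lower and 0.227% higher without overlap. Of the 41 features, 29 had a RefSeq symbol, and these included 11 Hox genes and Hoxaas3, an RNA transcribed opposite to the Hoxa cluster.

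Paralog group 5, which holds the gene the arrays were chosen on, was low in all 4 brains. Hoxa5, which phrenic motor neurons of the cervical cord need, was at -6.92 for fresh 2, -5.99 for freeze-dried 2, -6.02 for heated 2 and -7.81 for heated 4, against -2.32, 0.24 and 0.51 as the lowest, median and highest of the other arrays. Hoxc5 was at -7.42, -7.42, -5.56 and -7.54 in the same order, against -4.70, -2.09 and -1.51. Hoxb5, Hoxa5 and Hoxc5 were not well above background on any Hoxb5-low array, and so only bounds can be given: they were at least 60.5-fold, at least 37.2-fold and at least 7.37-fold lower. Such a bound sets the mean of the other brains against the dimmest signal that counted as above background on each low array.

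In paralog group 4 the Hoxb5-low brains separated among themselves. Hoxc4 lay at -7.68 in fresh 2, -7.21 in heated 2 and -6.96 in heated 4 but at -2.25 in freeze-dried 2, against -0.83 to 1.34 (median 0.94) in the other brains. Among the low brains, Hoxb4 was also highest in freeze-dried 2. It lay at -7.57 in fresh 2, -7.61 in heated 4, -5.28 in heated 2 and -3.64 in freeze-dried 2. The other brains lay at -1.89 to 0.07 (median -0.29). Freeze-dried 2 thus kept a level between the other low brains and the remaining 12. Hoxa4 and Hoxd4 were at -6.32 and -5.83 in freeze-dried 2 and at or below -7.21 in the other low brains, and they were not well above background on any of the 4 arrays (at least 4.12-fold and at least 4.28-fold lower).

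Paralog groups 3 and 2 reach into the middle and rostral hindbrain. Of the low brains, freeze-dried 2 was again the highest for Hoxa3, Hoxb2 and Hoxa2. Hoxa3 was at -6.59 for fresh 2, -1.87 for freeze-dried 2, -5.94 for heated 2 and -7.50 for heated 4, against -0.84 to 0.52 (median 0.11). Hoxb2, which helps set the identity of facial motor neurons, was at -7.29, -3.06, -7.27 and -7.70 in that order, against -2.35 to -1.18 (median -1.44). Hoxa2, whose expression reaches furthest rostrally of all Hox genes, was at -5.46, -3.02, -7.27 and -6.87, against -2.56 to -1.52 (median -1.95). The group-adjusted differences were -5.30 (SE 0.71) for Hoxa3, -3.61 (SE 0.39) for Hoxd3, -4.58 (SE 0.62) for Hoxb2 and -3.47 (SE 0.49) for Hoxa2.

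Hoxb3 depended on the probe. The probe that was brighter on average over the 16 arrays, and so stood for the gene, differed by only -0.21 (SE 0.09), with -3.48 to -3.14 in the low brains and -3.37 to -2.92 in the others. The second probe had a mean of -5.83 in the low brains and -2.39 in the others, where it was the brighter of the pair (-3.12 for the first), and differed by -3.44. The other measured Hox gene with more than 1 probe, Hoxa3, was lower with both (-5.51 and -3.14, without adjustment for group).

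Set against the remaining brains of its own treatment group, freeze-dried 2 had a loss that deepened with the paralog number. The median over the measured genes was -1.24 for group 2, -1.70 for group 3, -2.69 for group 4 and -5.67 for group 5 on the log2 scale. Fresh 2 had -4.72, -4.68, -6.06 and -7.17, and heated 4 had -5.61, -4.39, -5.98 and -8.10. Heated 2 was low across all of them, with -5.60, -4.54 and -6.30 for groups 2, 4 and 5. A gene that is dim in every brain can show only a small difference.

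**Figure D1:**
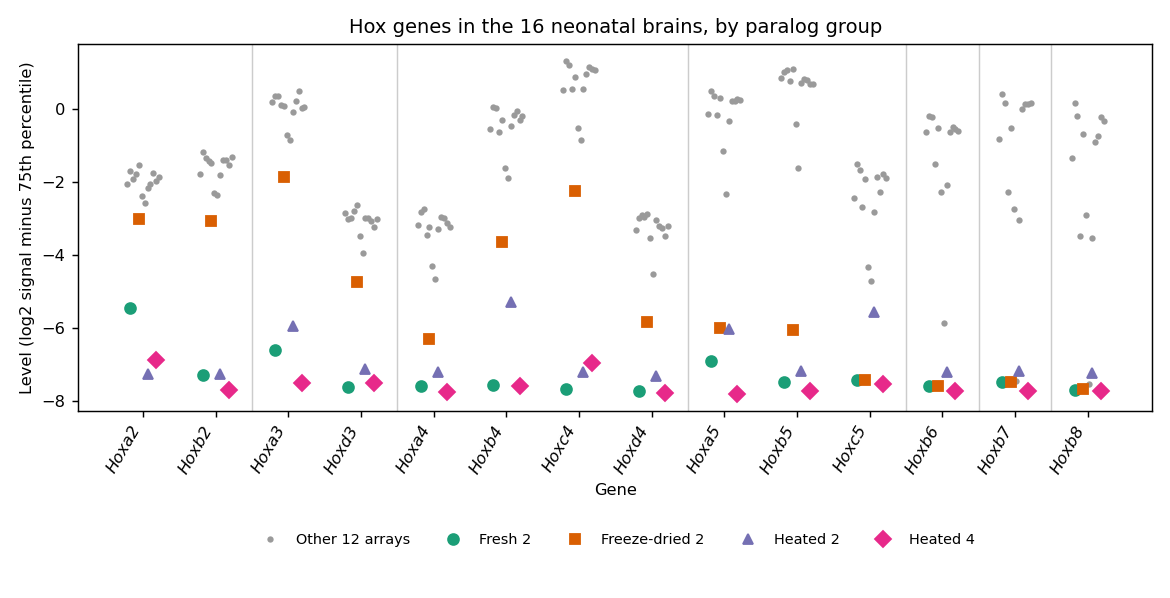
Levels of 14 Hox genes (log2 signal minus the 75th percentile of the array, vertical axis) ordered by paralog group on the horizontal axis; grey points are the other 12 arrays and coloured symbols the 4 Hoxb5-low arrays, with no error bars because each point is 1 brain. Freeze-dried 2 lies between the grey points and the other low brains for Hoxa3 (-1.87) and Hoxc4 (-2.25) and joins the low brains at Hoxb5 (-6.05).

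The 12 other brains were not uniform either. Irradiated 1 had the lowest level among them for 12 of the 13 measured Hox genes. Further along the clusters Hoxb7 was at -7.47 and Hoxb8 at -7.54 in irradiated 1, levels of the Hoxb5-low brains (-7.74 to -7.17 and -7.73 to -7.25), whereas its Hoxb5 stood at -1.61. Freeze-dried 4 was at -0.41 for Hoxb5, -2.74 for Hoxb7 and -2.89 for Hoxb8. Hoxb6, Hoxb7 and Hoxb8 did not pass the filter because irradiated 1 was dim. None of the 16 Hox genes of paralog groups 9 to 13 on the array, which pattern the trunk and limbs, was measured.

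Genes of hindbrain and spinal neurons outside the Hox clusters were lower with them, to different depths in each brain. Of 13 measured transcription factors of hindbrain and spinal interneurons, 11 had negative group-adjusted differences (median -0.51) and 5 were lower without overlap. Over all features 48.9% had negative differences (median 0.0043) and 0.389% were lower without overlap. Phox2a, a homeobox gene of noradrenergic and cranial motor neurons, was at -2.03 in freeze-dried 2, -2.66 in fresh 2, -2.50 in heated 4 and -6.65 in heated 2, against -1.74 to -1.07 (median -1.32). Freeze-dried 2 lay below the other brains by less than the rest of the low brains did, and heated 2 lay far below them.

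Pax2 and Pax8 specify inhibitory interneurons of the dorsal hindbrain and spinal cord, and Pax2 also acts at the midbrain-hindbrain boundary. Pax2 was at -2.82 for fresh 2, -1.89 for freeze-dried 2, -4.71 for heated 2 and -4.48 for heated 4, against -1.66 to -1.04 (median -1.35). Pax8 was at -4.87, -4.07, -5.16 and -5.85, against -3.72 to -2.97 (median -3.14). The 2 further Pax2 probes and 1 further Pax8 probe were at background nearly throughout and say nothing on the direction. Glra1, the adult glycine receptor subunit of spinal and brainstem synapses, was at -1.69, -1.01, -2.07 and -1.61, against -0.54 to 0.08 (median -0.09). Glrb, the receptor's shared subunit that is made throughout the brain, differed by -0.09 (SE 0.06).

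Most motor neuron and large-axon genes were lower in the same brains. Prph, the intermediate filament of motor and sensory neurons, was at -1.90 for fresh 2, -0.54 for freeze-dried 2, -2.25 for heated 2 and -1.93 for heated 4, against -0.45 to -0.01 (median -0.12). Slc18a3, the vesicular acetylcholine transporter, was at -1.49, -0.49, -1.37 and -1.27, against -0.45 to -0.11 (median -0.19). In freeze-dried 2 both lay within 0.1 of the other brains, and in the other low brains they were lower by at least 1.08 against their own treatment group. Of 10 measured motor neuron genes 9 had negative differences (median -0.74; 48.9% of all features) and 3 were lower without overlap (0.389% of all features). The exception was Isl1 (0.32, SE 0.05), which forebrain cholinergic and striatal neurons also make. Calca, among the genes lower without overlap (-0.88, SE 0.14), depended on the probe. Its dimmer probe, well above background on all 16 arrays, was higher in the low brains (0.66, without adjustment for group). The neurofilament subunits Nefh (-0.87, SE 0.13) and Nefm (-0.64, SE 0.09) did not overlap, and Nefl (-0.36, SE 0.09) did. Ina, a further member of the neurofilament list, went the other way (0.16, SE 0.06).

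The monoamine nuclei of the rostral hindbrain separated heated 2 from the other low brains. Dbh, the enzyme that makes noradrenaline, was at -4.13 in heated 2 and at -0.23, -0.35 and -0.20 in fresh 2, freeze-dried 2 and heated 4, against -0.26 to 0.05 in the other brains. The noradrenaline transporter Slc6a2 was at -3.90 in heated 2 and at -1.38, -1.56 and -1.40 in the rest of the low brains, against -1.54 to -1.27. Tph2, the serotonin-making enzyme of the raphe nuclei, was at -4.26 in heated 2 and at -2.34, -2.08 and -2.54 in the rest, against -2.44 to -2.05. The serotonin transporter Slc6a4 was at -0.88 in heated 2, below all other 15 arrays. In the remaining low brains these 4 genes lay inside the range of the 12 other brains or close below it, so defining markers of these nuclei were present in 3 of the 4 low brains and the description of a brain without hindbrain signal goes too far for them. Fev, a transcription factor of serotonin neurons, was higher in freeze-dried 2 (-2.58) than in the other 12 brains (-4.48 to -3.79).

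Cerebellar genes split the low brains differently, with heated 2 and heated 4 low and the other pair near normal. Pcp2, made by Purkinje cells, was at 0.98 in fresh 2 and 0.94 in freeze-dried 2, inside the range of the other brains (0.81 to 1.24), and at -2.55 in heated 2 and -3.73 in heated 4. Atoh1, the regulator of granule cell precursors, was at -2.89 and -2.40 in fresh 2 and freeze-dried 2 and at -7.22 and -6.93 in heated 2 and heated 4, against -2.97 to -1.88. Skor2, a Purkinje cell corepressor, followed with -4.19 and -3.96 against -7.27 and -5.92 (other brains -4.37 to -3.68). Over 17 measured cerebellar genes the mean differed from the own group by -0.16 and -0.03 in fresh 2 and freeze-dried 2 and by -1.12 and -0.94 in heated 2 and heated 4. The rostral boundary gene En2 was at 1.16 and 1.38 in the heated pair, below the 1.79 to 2.18 of the other brains.

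**Figure D2:**
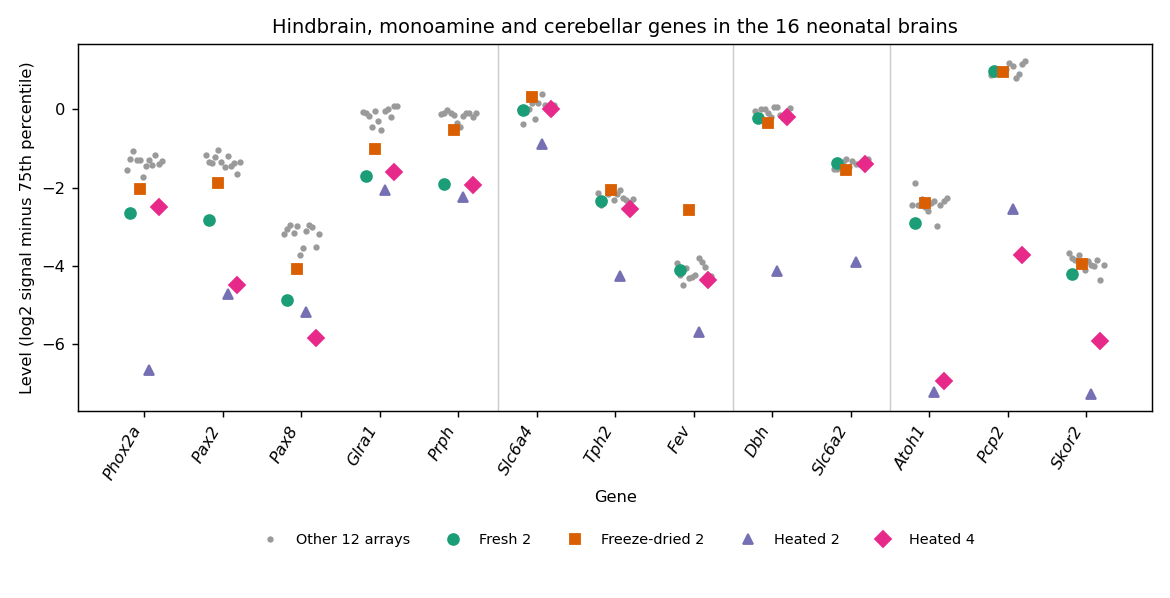
Levels of hindbrain and motor genes, serotonin genes, noradrenaline genes and cerebellar genes (log2 signal minus the 75th percentile, vertical axis; vertical lines part the sets) in the 4 Hoxb5-low brains (coloured) and the other 12 (grey), 1 point per brain. Dbh at -4.13 and Slc6a2 at -3.90 set heated 2 apart, and Pcp2 at -2.55 and -3.73 sets heated 2 and heated 4 apart.

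By these genes the 4 brains can be ordered by how many hindbrain levels were low. Freeze-dried 2 was low mainly in the Hox genes of groups 4 and 5, fresh 2 in the Hox genes of groups 2 to 5 with the cerebellar and monoamine genes kept, heated 4 in the cerebellar genes also, and heated 2 in the cerebellar, noradrenaline and serotonin genes. In none of them were midbrain and isthmus genes low as a list: list means differed from the own group by 0.18 for fresh 2, 0.13 for freeze-dried 2, -0.01 for heated 2 and 0.05 for heated 4. In bulk RNA, fewer cells of a type and less RNA per cell cannot be told apart, so whether tissue or expression was missing was not tested.

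Forebrain genes were slightly higher in the Hoxb5-low brains. All 16 measured genes of the cerebral cortex and hippocampus had positive differences (median 0.28; 51.1% of all features) and 6 were higher without overlap (0.227% of all features), with a positive median on each slide alone (0.22 and 0.19). Emx1, a homeobox gene of the dorsal telencephalon, was at -0.18 for fresh 2, -0.34 for freeze-dried 2, -0.22 for heated 2 and -0.09 for heated 4, against -0.80 to -0.43 (median -0.57). Emx2 (0.32, SE 0.06), Neurod2 (0.29, SE 0.05) and Sla (0.30, SE 0.07) were likewise higher without overlap. Neurog2, of cortical progenitors, had a larger difference (0.45) but overlapped widely.

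Single genes outside the cortex and hippocampus list were higher too. Nr2e1, a nuclear receptor of forebrain progenitors, was at 1.07 for fresh 2, 0.94 for freeze-dried 2, 0.93 for heated 2 and 1.01 for heated 4, against 0.49 to 0.81 (median 0.65). Lhx8, of basal forebrain cholinergic neurons, was at 0.69, 0.57, 0.58 and 0.56, against 0.19 to 0.45 (median 0.32). Trp73, made by Cajal-Retzius cells, and Avp, the hypothalamic vasopressin gene, were higher by 0.37 (SE 0.07) and 0.30 (SE 0.07). The Trp73 difference depended on the probe. A dimmer Trp73 probe, well above background on all 16 arrays, differed by only 0.05 (without adjustment for group). The remaining Trp73 probe was not well above background on any array. Hypothalamic genes were positive in 14 of 17 (median 0.23), those of striatum and subpallium in 16 of 23 (median 0.11) and those of the thalamus in 4 of 7 (median 0.00), beside 51.1% of all features. Midbrain and isthmus genes, outside the forebrain, were positive in 11 of 14 (median 0.15). On slide 1 alone 12 of these 14 were positive (median 0.26), and on slide 2 alone 6 were (median -0.08). Pomc, made in the hypothalamus and the pituitary, had a difference of -1.38 (SE 0.93), although the low brains (-1.02 to -0.62) lay near the median of the others (-0.87), whose highest level was 3.10. The summed linear level of 11 pituitary genes was 9.86 for fresh 3, 7.38 for freeze-dried 1 and 9.33 for heated 1, all among the other 12 brains, and at most 0.59 elsewhere, and its part in the Pomc difference was not tested. Each array is scaled to its own 75th percentile, so these are levels relative to the rest of the RNA; how far scaling sets them was not tested, beyond the median scaling in the closing section.

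Glial genes were lower too. All 13 measured astrocyte genes had negative differences (median -0.34, beside 48.9% of all features). S100b, a calcium-binding protein of glia, was at -0.46 for fresh 2, 0.13 for freeze-dried 2, 0.08 for heated 2 and 0.29 for heated 4, against 0.34 to 1.29 (median 0.77). It was the only astrocyte gene lower without overlap (0.389% of all features). On slide 2 alone, 4 of the 13 astrocyte genes were positive (median -0.15), and on slide 1 none (median -0.32). Of 14 measured oligodendrocyte lineage genes, 12 had negative differences (median -0.15, beside 48.9% of all features). Of these, 2 were lower without overlap (0.389% of all features). On slide 2 alone, 6 of the 14 were positive (median -0.03), and on slide 1 alone 2 were (median -0.26). Bcas1, of newly myelinating oligodendrocytes, was at 0.47, 1.07, 0.97 and 0.95 in the low brains, against 1.27 to 2.07 (median 1.51). Lamp5, a lysosome-associated membrane protein of neurons, was at -2.47, -0.96, -3.12 and -2.81, against -0.69 to 0.00 (median -0.23).

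**Figure D3:**
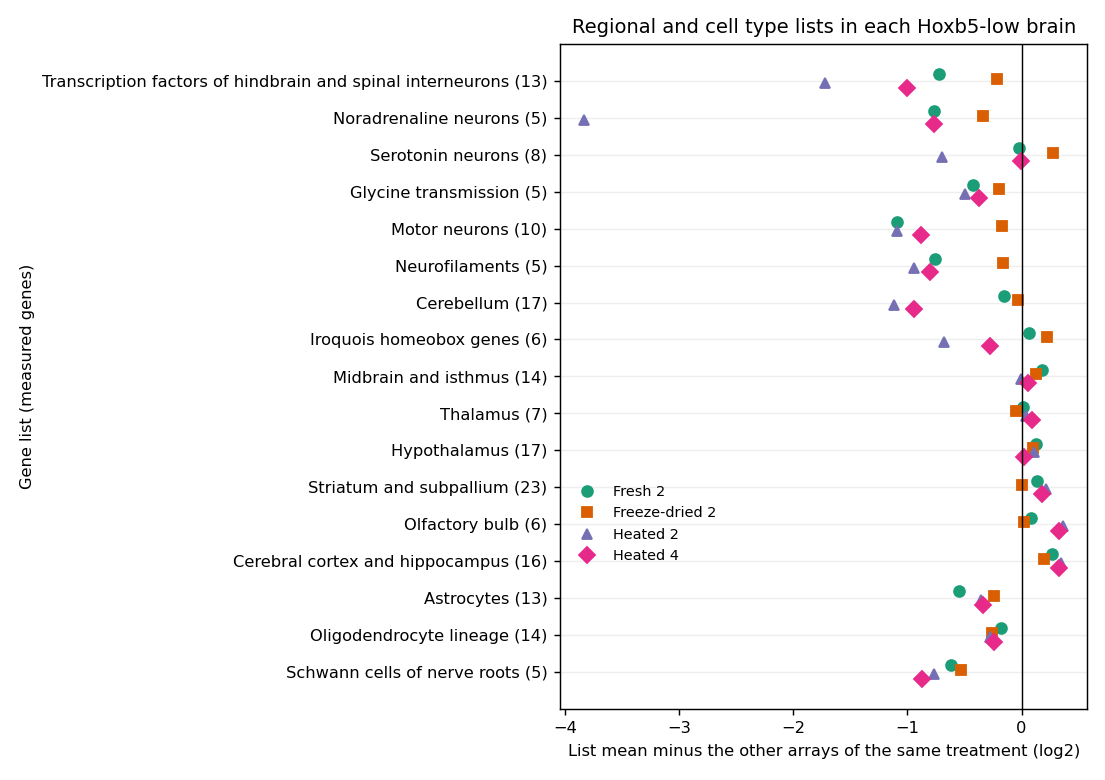
Mean level of each gene list in a Hoxb5-low brain minus the mean of the remaining brains of its own treatment group (log2, horizontal axis), with lists on the vertical axis and the number of measured genes in brackets; 1 symbol per brain, no error bars. Noradrenaline genes lie at -3.84 in heated 2 against -0.77 to -0.34 for the rest of the low brains, cerebellar genes at -1.12 in heated 2 and -0.94 in heated 4, and the cerebral cortex list is right of 0 in all 4 brains (0.20 to 0.34).

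Skin genes were high in 1 of the 4 samples. The summed linear level of 10 skin genes was 128 in freeze-dried 2 and 19.0 to 21.5 in the other 15 arrays, with the keratin Krt14 at 2.49 against -3.73 to -3.06. Hoxd8 was also higher there (-3.24) than in the other low brains (-7.14 to -5.13), and the part of skin RNA in the levels of freeze-dried 2 was not tested. Without freeze-dried 2 the 41 features lower without overlap became 72. The mean of 4 Y-linked genes was high in fresh 2, freeze-dried 2 and heated 4 (-1.58 to -1.24) and low in heated 2 (-6.31), and with it as a covariate 40 features were lower.

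The treatment groups offer comparisons that the choice of arrays did not use. Regional and cell type genes, 255 of them measured, were tested with limma over all 26477 features with Benjamini-Hochberg adjustment at 0.05. The freeze-dried comparison with fresh and the irradiated comparison with freeze-dried called 0 of 255 (0% of all features called in each direction), with 15 and 11 of the 255 at an unadjusted p under 0.05. In the heated comparison with freeze-dried, 13 of the 255 rose (5.10%, against 2.5% of all features) and 9 fell (3.53%, against 1.37%). Genes of ependymal cilia led: Ccdc153 rose by 1.06 (SE 0.13, limma adjusted p = 0.00375), Tmem212 by 1.06 (SE 0.17, limma adjusted p = 0.00828) and Dynlrb2 by 0.58 (SE 0.09, limma adjusted p = 0.00874). Among genes that fell were Irx2 (-0.70), of the rostral hindbrain and midbrain, the Purkinje and granule lineage gene Ebf2 (-0.82), and Otx2 (-0.43), of the choroid plexus and midbrain.

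These calls depended on the Hoxb5-low brains and the slides. Without the 4 low arrays 1 of the 255 was called, the astrocyte gene Agt, and with a Hoxb5-low term in the fit 52 were called (27 higher, 25 lower). All freeze-dried arrays lay on slide 1 and all heated arrays on slide 2, and with slide as a block 0 of 255 were called. Hoxb5 itself differed by -2.25 between heated and freeze-dried brains (SE 2.36, limma adjusted p = 0.596) and by 0.18 without the 4 low arrays. None of the 13 Hox genes was called in any of the treatment comparisons.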

How the data were processed

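Intensity values were extracted from the scans by the authors with Agilent Feature Extraction 11.0.1.1 (one colour, Cy3), per the file headers and the submitters' processing notes, with the processed signal background-subtracted within each array only. In the deposited value table are log2 values of 31313 probes, made by the authors in a way not stated in the sources used here. Its 16 column medians lie between 9.34 and 9.35, how it was normalized stays unknown, and it served as an alternative only.

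Spots of a probe were averaged (56605 probes), 75 outlier spots were left out and 0 were saturated. Processed signals were put on the log2 scale minus each array's 75th percentile (720 to 958). A probe was kept where 1 group or more had it well above background on each of its 4 arrays, and the brightest probe stood for a gene, which left 26477 features, 15993 of them with a RefSeq symbol through the accession on the array. No arrays were identical (correlations 0.986 to 0.997).

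The Hoxb5-low contrast was fitted with limma 3.58.1 in R 4.3.3 on 4 group terms and 1 term for the low arrays, for differences and moderated SEs only. Treatment comparisons used 4 group means, two-sided moderated tests and Benjamini-Hochberg adjustment over all features. Both fits were tested on simulated data.

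Members, lists and tests were chosen with earlier results of these data known. Named were the measured Hox genes, the 15 lowest and 15 highest genes without overlap, up to 6 members of a list with the largest difference and up to 3 with the highest level, and up to 8 list genes with the smallest p in a treatment comparison. Slc6a4, Glrb, Hoxb6, Hoxb7, Hoxb8, Hoxd8 and En2 were named after their values were seen. A few genes that the rule names are not reported here. Alternatives were other background corrections, scalings, filters and probe rules, the deposited table, blocks for slide and replicate number, a Y-linked covariate and leaving out each array. Mean spot signals were not used, and the normexp alternative took median spot signals instead.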

Additional observations from a re-analysis of the deposited data

Results flagged for a closer look

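In groups of 4 arrays, Dixon's criterion (0.829) set single arrays apart in 15 of 116 groups tested over Hoxb5, Hoxc4 and the list means, a criterion that sets about 1 in 20 groups apart by chance. The values of Hoxb5 and the Hox lists in fresh 2 follow from the choice of that array by its Hoxb5 level, so the number of such groups is not weighed against that rate. Hoxb5 in fresh 2 (-7.49, others 0.87 to 1.09) and in irradiated 1 (-1.61, others 0.72 to 0.82) were such values, as was Hoxc4 in fresh 2 (-7.68). In fresh 2 the mean level was also low for Hox genes of paralog groups 1 to 4 (-6.54, others -1.88 to -1.52), Hox genes of groups 5 to 8 (-7.28, others -0.56 to 0.01), motor neuron genes (-2.80, others -1.80 to -1.65) and oligodendrocyte genes (0.28, others at 0.46). Motor neuron genes were low in irradiated 1 as well (-1.90, others -1.69 to -1.66).

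The serotonin list was low in heated 2 (-1.47, others -0.80 to -0.74), and the midbrain list stood slightly high in heated 4 (-1.60, others -1.66 to -1.65). Skin genes were high in freeze-dried 2 (3.59, others 0.22 to 0.28), where Schwann cell genes were low (-2.78, others -2.27 to -2.20). Outside the Hoxb5-low brains, Iroquois genes were low in irradiated 3 (-0.70), choroid plexus genes high in fresh 3 (0.77) and skeletal muscle genes high in fresh 1 (0.89, others -2.77 to -2.47).

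Iroquois homeobox genes, which pattern the neural tube from the diencephalon backward, were below the own group in heated 2 and heated 4 (-0.68 and -0.27) and above it in fresh 2 and freeze-dried 2 (0.06 and 0.23). The pairs differed by -0.62, and this difference was not tested.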

How the results depend on the processing

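The 41 features lower without overlap became 13 in the deposited value table, 76 and 19 with a minimum difference of 0.5 and 2, and 96 with overlap allowed; leaving out 1 array gave 40 to 72, the highest without freeze-dried 2. The 0 features higher became 1 at a minimum of 0.5 and 33 with overlap allowed, and 0 to 2 when 1 array was left out. The 6 lists with a median of -0.5 or lower became 2 in the deposited table and 4 to 6 when 1 array was left out. Median scaling added 0.11 to every difference, which put the median of all features at 0.11, the cortex list at 0.39 and the astrocyte list at -0.24. The noradrenaline list median of -0.97 was -0.19 without heated 2.

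The 22 regional genes called between heated and freeze-dried brains became 7 with median scaling, 14 without the filter on dim probes, 6 with the Y-linked covariate, 52 with the Hoxb5-low term, 1 without the 4 low arrays, and 0 both with slide as a block and in the deposited table. Leaving out 1 array gave 6 to 31: 14 without freeze-dried 1, 6 without freeze-dried 2, 9 without heated 2 or heated 4, and 31 without fresh 2. Directions under the alternatives were compared only for the list genes with the smallest p in each treatment comparison, and no direction among them was reversed. Whether the other called genes kept their direction was not tested. The cause of the changes in these counts was not tested either.

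The replicate block left 41 features lower, 4 lists at -0.5 or lower and 27 regional genes called between heated and freeze-dried brains. Samples sharing a replicate number deviated together in 10 of 24 pairs (r over 0.1, range -0.39 to 0.38). Such correlations cannot tell whether a number stands for a shared batch. Fresh 2, freeze-dried 2 and heated 2, all Hoxb5-low, carry the same replicate number, and what that number stands for was not tested. With Hoxc4 in place of Hoxb5, 3 arrays were low and the exact permutation p over treatment groups was 0.543. Levels near -7 lie at background, which limits how low a dim gene can be read.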
